A study of Homo sapiens with 4 samples.

Results

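The genes described here are 8 core components of PI3K, AKT and mTOR signalling: PIK3CA, PIK3R1, AKT1, AKT2, MTOR, RPTOR, RICTOR and TSC1. They were taken by symbol from the annotated windows of a YTHDF1 RNA immunoprecipitation sequencing (RIP-seq) experiment. A listed window is a stretch of 50 bp of a gene in which RNA was called as enriched in the YTHDF1 immunoprecipitate over input. All 8 genes had a listed window, and they held 39 of the 26819 windows and were 8 of the 7550 genes in the table. Both groups, IP-YTHDF1 and Input, had 2 biological replicates, and all 4 libraries came from SNU638, an established gastric cancer cell line. Every library, input included, was made from cells that overexpressed YTHDF1 (immunoprecipitated through a FLAG tag in the methods), spent 24 h in serum-free medium and received IFN-γ at 10 ng/ml for 24 h. No library of a control antibody was compared, and no group lacked YTHDF1 overexpression or IFN-γ. The windows therefore describe RNA recovered with YTHDF1 under these conditions and not a response to either. The place of a window is that of the enriched RNA and not a mapped binding site.

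PI3K is a lipid kinase made of a catalytic and a regulatory subunit. Growth factor receptors activate it at the membrane, the lipid it makes recruits the kinase AKT, and AKT lifts the inhibition that the TSC complex holds over the small GTPase RHEB. RHEB then activates mTOR in complex 1 (mTORC1), which drives protein synthesis and restrains autophagy, whereas mTOR in complex 2 (mTORC2) phosphorylates AKT. PIK3CA is among the most often mutated oncogenes in gastric cancer. YTHDF1 is a cytoplasmic protein that recognises N6-methyladenosine (m6A) in mRNA.

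Each window carried 1 signal value, 1 p-value and 1 q-value, all as the authors deposited them. There was no value per library, so no spread between replicates could be given, the depth was unknown and no difference between genes below was tested. The scale of the signal value was not stated, and it serves here only to order windows within the table. Across all 26819 windows its median was 1.84, with the 25th percentile at 1.54 and the 75th at 2.19. The q-values held within a gene only, since they had been adjusted over the windows tested in that gene.

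A listed window was found for 8 of the 8 genes, against 31.8% of the 20056 protein-coding genes of the RefSeq annotation. The 20056 include genes that are silent in SNU638, and for a gene outside the table, absence of binding and absence of expression cannot be told apart. With the q-value limit lowered to 0.001, 6 of the 8 genes kept a window, against 21.2% of protein-coding genes. AKT2 and RICTOR were the pair without one. Under a Bonferroni limit over the 304494 windows counted as tested in the listed genes, PIK3CA, AKT1 and MTOR had a window left, so 3 of the 8 genes passed against 12.6%. After a Benjamini-Hochberg adjustment over those same windows, 8 of the 8 genes still had one, against 31.3%. A window whose signal value reached 2 was found in 8 of the 8, against 22.0%. These percentages are over all 20056 genes, whereas the 8 genes were all listed. The 8 genes were chosen with earlier results of these data known, so the counts are a description and not a test. Of the 6370 listed protein-coding genes, 4248 kept a window at the q-value limit of 0.001 and 2518 under the Bonferroni limit. After the Benjamini-Hochberg adjustment 6282 kept one, and 4420 had a signal value of at least 2. By strongest window, a value that tends to rise with the number of windows listed, the 8 genes lay near the middle of the table. The median of their 39 windows was 1.81, beside 1.84 over all windows. AKT2 had the lowest strongest window, 2.00, and PIK3CA the highest, 2.79, and the median over the 8 genes was 2.32 beside 2.23 over the 6679 protein-coding genes with a window. PIK3CA, RPTOR, MTOR and AKT1 lay above that protein-coding median, and PIK3R1, RICTOR, TSC1 and AKT2 lay below it.

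**Figure D1:**
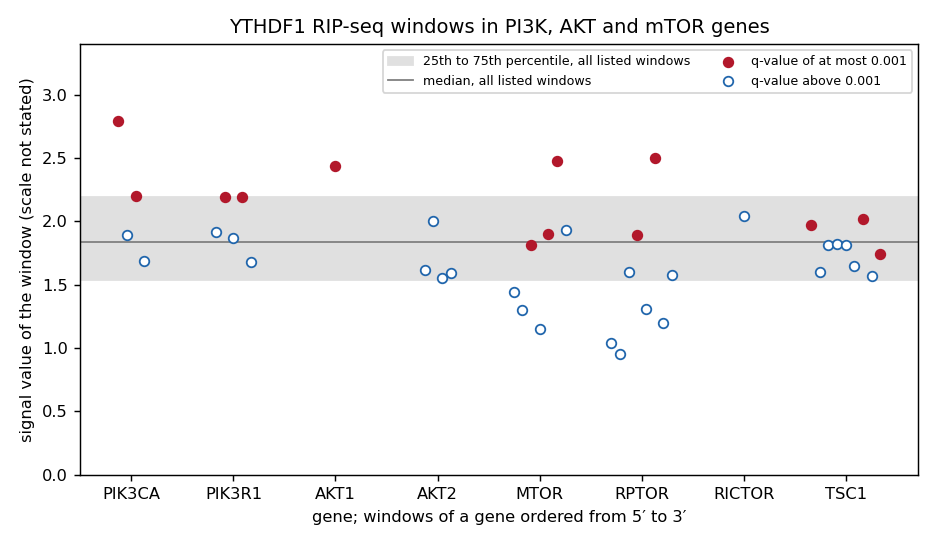
Signal value (vertical axis, scale not stated) of each of the 39 windows in the 8 genes, ordered from 5′ to 3′ within a gene, with the 25th to 75th percentile and the median of all listed windows in grey. Filled points are windows whose q-value did not exceed 0.001. PIK3CA holds the highest value, 2.79, RPTOR the widest range, from 0.95 to 2.50, and AKT1 and RICTOR have a single window each.

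PIK3CA (ENSG00000121879, plus strand of chromosome 3) encodes the catalytic subunit p110α. Its 4 windows formed a pair near the 5′ end of the gene and a pair far downstream. At chr3:179148465-179148514 the signal value was 2.79, with a p-value of 6.61e-11 and a q-value of 1.85e-09. This was the highest value among the 39 windows, above 94.2% of all listed windows, and as the strongest window of its gene it exceeded that of 85.1% of protein-coding genes. The window that touched it, chr3:179148515-179148564, was weaker, at 1.89, and its q-value was 0.00628. This 5′ pair began 108 bp after the transcript start that RefSeq annotates for PIK3CA. The other pair lay about midway along the gene, 50739 and 50939 bp from its 5′ end. Signal values there were 2.20 (q-value 0.000514) and 1.69 (q-value 0.0300), so in both pairs the window nearer the 5′ end was the stronger one.

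PIK3R1 (ENSG00000145675, plus strand of chromosome 5) encodes p85α, the regulatory subunit that stabilises p110α and holds it inactive until a receptor binds. It had 5 windows. The first 2 touched each other at chr5:68215807-68215906, with signal values of 1.92 and 2.19. A further 3 lay about 11 kb downstream, between positions 68226607 and 68226956, with signal values of 1.87, 2.19 and 1.68. The 2 strongest windows were thus level, 1 in each cluster, with q-values of 0.000386 in the first and 0.000436 in the second. The value of 2.19 was above 74.8% of all listed windows.

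The PIK3R1 windows were all at the 5′ side of the gene. RefSeq annotates 4 transcript starts for PIK3R1, and the 3 downstream ones, 72763, 74908 and 76821 bp after the first, give rise to shorter transcripts that encode the short regulatory isoforms of the gene. All 5 windows lay downstream of the first start, beginning 51 bp after it, and all 5 lay upstream of the 3 others. None of the windows therefore fell in sequence that transcripts from the 3 downstream starts could contain. In the 74865 bp of the gene that follow the last window, 0 windows were listed. Only 32 windows of 50 bp were counted as tested in PIK3R1, and where the unlisted ones lay is not known. That stretch was therefore not tested throughout. Which transcripts were present in SNU638 was not measured here.

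The catalytic and the regulatory subunit were alike in the share of tested windows that were listed. The number of windows tested in a gene was computed from the quotient of its q-values and p-values. PIK3CA had 4 of 28 tested windows listed (14.3%), and PIK3R1 had 5 of 32 (15.6%). These were the 2 highest shares among the 8 genes and the only ones above the protein-coding median of 9.09%. They were also the 2 genes with the fewest tested windows. No gene had more than 9 listed windows, so a gene with many tested windows could not reach a high share. The shares at the 25th and 75th percentiles of protein-coding genes were 5.26% and 14.3%.

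AKT1 and AKT2 are closely related serine/threonine kinases that PI3K signalling recruits to the membrane, and they differed in the number and strength of their windows. AKT1 (ENSG00000142208, minus strand of chromosome 14) had 1 window of 34 tested (2.94%), at chr14:104773500-104773549. Its signal value was 2.44, with a p-value of 1.65e-11 and a q-value of 5.63e-10. This p-value was lower than that of the strongest PIK3CA window although the signal value was lower too. The AKT1 window lay 22199 bp from the 5′ end and 4151 bp from the 3′ end of the gene, downstream of both of its annotated starts.

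AKT2 (ENSG00000105221, minus strand of chromosome 19) had 4 separate windows of 69 tested (5.80%). From 5′ to 3′ their signal values were 1.62, 2.00, 1.55 and 1.59, so 3 of the 4 were below the median of all windows. The highest of them, at chr19:40242618-40242667, was below the single AKT1 value. Its q-value was 0.00387, and the smallest q-value of AKT2 was the same number, shared with the 5′-most window at chr19:40256968-40257017. All 4 lay in the 3′ part of the gene, from 51.5% to 93.5% of the way along it and downstream of both annotated starts. By smallest p-value AKT1 came second of the 8 genes, after MTOR, and by strongest signal value AKT2 came last.

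MTOR (ENSG00000198793, minus strand of chromosome 1) encodes the kinase shared by mTORC1 and mTORC2. It had 7 windows of 88 tested (7.95%). From 5′ to 3′ their signal values were 1.44, 1.30, 1.81, 1.15, 1.90, 2.48 and 1.93. The strongest, at chr1:11253886-11253935, had a p-value listed as 0, the only one among the 39 windows and 1 of 508 in the table, where the smallest value above 0 was 1.11e-16. Its signal value nonetheless exceeded that of 87.2% of windows and no more. The next most significant, at chr1:11256036-11256085, combined a signal value of 1.90 with a p-value of 2.44e-09. Low signal values with small p-values occurred too, such as 1.44 with a p-value of 8.75e-05 at the 5′-most window.

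The MTOR windows were crowded at the 5′ side. The gene interval is 156017 bp long in RefSeq, and all 7 windows lay between 3166 and 14466 bp from its 5′ end, in 5 separate regions. The last of them was centred at 9.29% of the gene, so 141501 bp towards the 3′ end held no listed window. With 88 windows counted as tested, that stretch was not tested throughout, and where the unlisted ones lay is not known. None of the 7550 genes had more than 9 windows. MTOR had fewer, and its q-values fitted an unbroken order of 88 tested windows, so no passing window was seen to be missing.

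**Figure D2:**
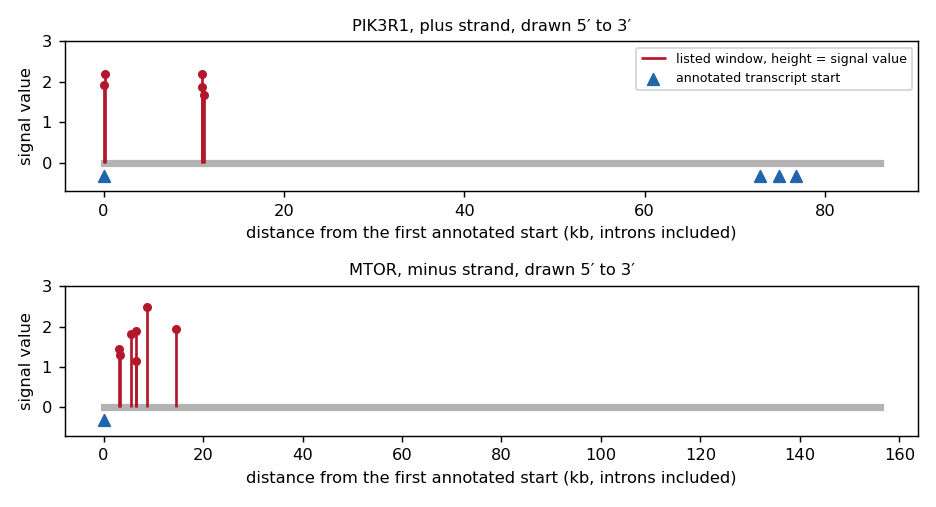
Listed windows of PIK3R1 (above) and MTOR (below) against distance from the first annotated transcript start in kb, introns included, with the height of each line giving the signal value. Triangles mark transcript starts annotated in RefSeq. All 5 PIK3R1 windows sit between the first start and the 3 downstream starts, and all 7 MTOR windows sit within 14466 bp of the 5′ end.

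RPTOR (ENSG00000141564, plus strand of chromosome 17) encodes raptor, the scaffold that brings substrates to mTORC1. With 421531 bp it is the longest of the 8 genes, and it had 8 windows of 170 tested (4.71%). From 5′ to 3′ the signal values were 1.04, 0.95, 1.60, 1.89, 1.31, 2.50, 1.20 and 1.58. The strongest, at chr17:80957670-80957719, had a q-value of 0.000220 and exceeded 87.9% of all windows. At the other extreme, chr17:80754070-80754119 stood at 0.95 with a q-value of 0.0350, the lowest signal value of the 39 windows and above 1.80% of the table. Unlike those of MTOR, the RPTOR windows reached both ends of the gene: the first lay 832 bp from the 5′ end and the last 1399 bp from the 3′ end. The last 5 windows were nonetheless all in the final 10% of the interval, from 90.3% to 99.7%.

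RICTOR (ENSG00000164327, minus strand of chromosome 5), the scaffold of mTORC2, had 1 window of 54 tested (1.85%), the lowest share of the 8 genes. It lay at chr5:38939171-38939220, 1251 bp from the 3′ end of a gene of 136480 bp. The signal value was 2.04, with a p-value of 9.91e-05 and a q-value of 0.00535. Set beside each other, RPTOR had the larger number of windows and the higher strongest value. Both scaffold genes had a window within 1399 bp of the 3′ end, but 3 of the 8 RPTOR windows lay in the first 50% of the gene, and TSC1 had a window 1400 bp from its 3′ end as well.

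TSC1 (ENSG00000165699, minus strand of chromosome 9) encodes hamartin, which stabilises the TSC complex and so restrains RHEB and mTORC1. It had 9 windows of 114 tested (7.89%), the most of the 8 genes and the most listed for any gene. A count of 9 is read as 9 or more, as 12.8% of protein-coding genes in the table tied at it. From 5′ to 3′ the signal values were 1.97, 1.60, 1.81, 1.82, 1.81, 1.65, 2.02, 1.57 and 1.74. They lay closer together than those of MTOR or RPTOR, none below 1.57 and none above 2.02. The smallest q-value, 7.45e-05, belonged to the window at chr9:132894349-132894398, which also had the highest signal value. The next, 0.000195, belonged to the 3′-most window at chr9:132892749-132892798, where the signal value was 1.74. The q-values of the 9 fitted an unbroken order, which cannot show a missing window with a larger p-value. The TSC1 windows began 16480 bp from the 5′ end and extended to 1400 bp from the 3′ end.

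**Figure D3:**
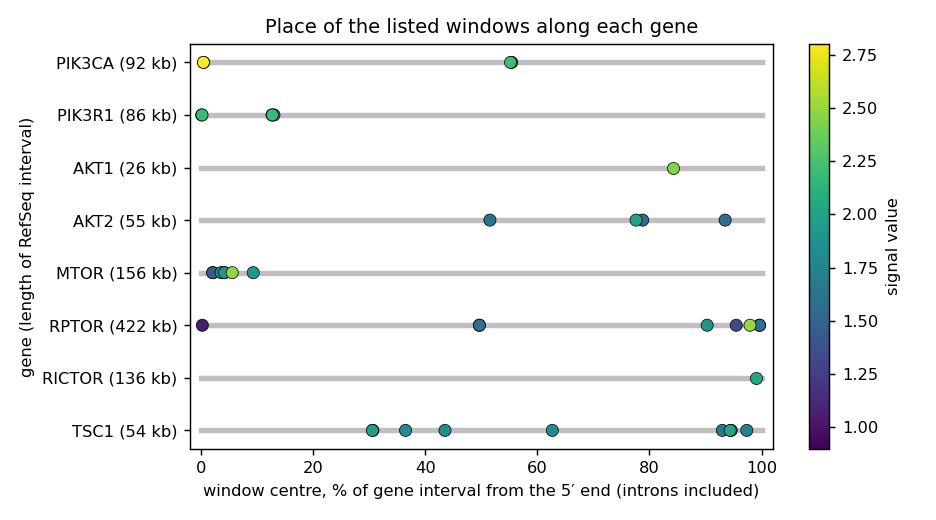
Centre of each listed window as a percentage of the RefSeq gene interval from the 5′ end (horizontal axis, introns included) for the 8 genes, coloured by signal value. MTOR and PIK3R1 windows are confined to the first 15%, the AKT1, AKT2 and RICTOR windows lie beyond 50%, and those of PIK3CA, RPTOR and TSC1 are spread over at least 50% of the interval.

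Viewed over the 8 genes, 15 of the 39 windows (38.5%) were centred in the first 15% of the gene interval, against 37.7% of windows in protein-coding genes. In the last 15% there were 11 (28.2%), against 15.6%. Most of these 11 belonged to RPTOR and TSC1, and PIK3CA, PIK3R1, AKT1 and MTOR had none there. PIK3R1 and MTOR were the genes with every window in the first 15%, a limit chosen after these positions were seen. Of 459 protein-coding genes at least 50000 bp long with 5 to 8 listed windows, 51 (11.1%) had all of them in the first 15% and 14 (3.05%) in the last 15%. MTOR, PIK3R1 and RPTOR are in that class. Exons were not located here, and they are not evenly spread over an interval that includes introns. The places of windows that were tested but not listed are not known either.

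The number of windows counted as tested differed among the 8 genes. Tested windows ran from 28 in PIK3CA to 170 in RPTOR, and 5 of the 8 genes had more than the protein-coding median of 35. The 3 genes with 7 or more listed windows, MTOR, RPTOR and TSC1, were also those with the most tested windows, and 19.8% of protein-coding genes in the table had 7 or more. Pooled, 39 of 589 tested windows were listed (6.62%), against 8.77% over protein-coding genes. Both shares depend on the limit of 9 listed windows per gene and on the mix of tested counts. The 8.77% also rests on tested counts that are lower bounds where ranks were skipped. Of the 39 windows, 10 had a signal value of at least 2 (25.6%), against 37.2% of all windows, and 13 had a q-value no higher than 0.001 (33.3%), against 43.7%. None of the 39 overlapped a listed window of another gene on either strand, and none overlapped the interval from 250 bp before to 50 bp after an annotated transcript start. The first PIK3R1 window began directly after that interval, 51 bp from a start, and the first PIK3CA window 108 bp from one.

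**Figure D4:**
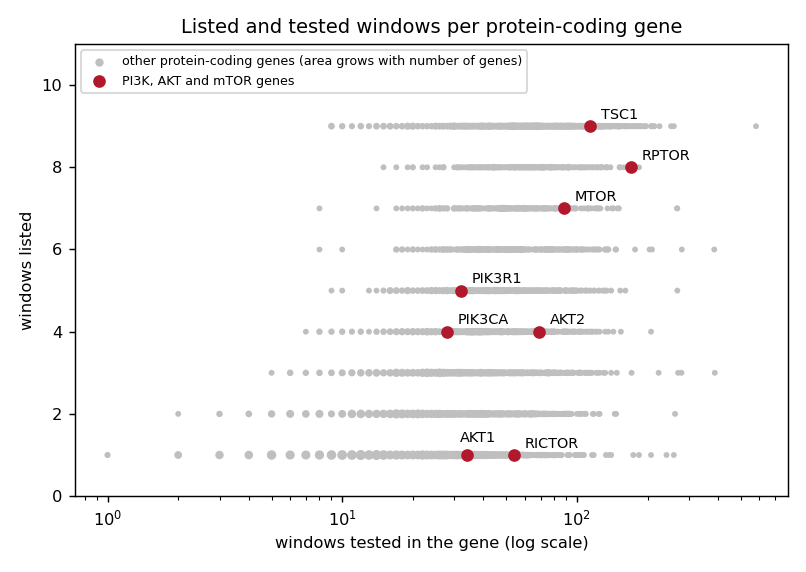
Listed windows (vertical axis) against windows tested (horizontal axis, log scale) for protein-coding genes, with the 8 genes in red. The largest number listed for any gene is 9, at which TSC1 lies. AKT1 and RICTOR have 1 listed window from 34 and 54 tested.

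The rest of the pathway was described through 94 further genes in 8 roles. A window was listed for 53 of them (56.4%), beside the 31.8% of protein-coding genes. This list too was chosen with earlier results of these data known. The median of their strongest windows was 2.31, close to the protein-coding median of 2.23. Under the Bonferroni limit 26 of the 94 had a window left, beside 12.6% of protein-coding genes. Counted among listed genes, these were 26 of 53 pathway genes and 3 of the 8 described genes, beside 2518 of 6370 protein-coding genes. The median number of windows in a listed gene was 4, against 3 over protein-coding genes.

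**Figure D5:**
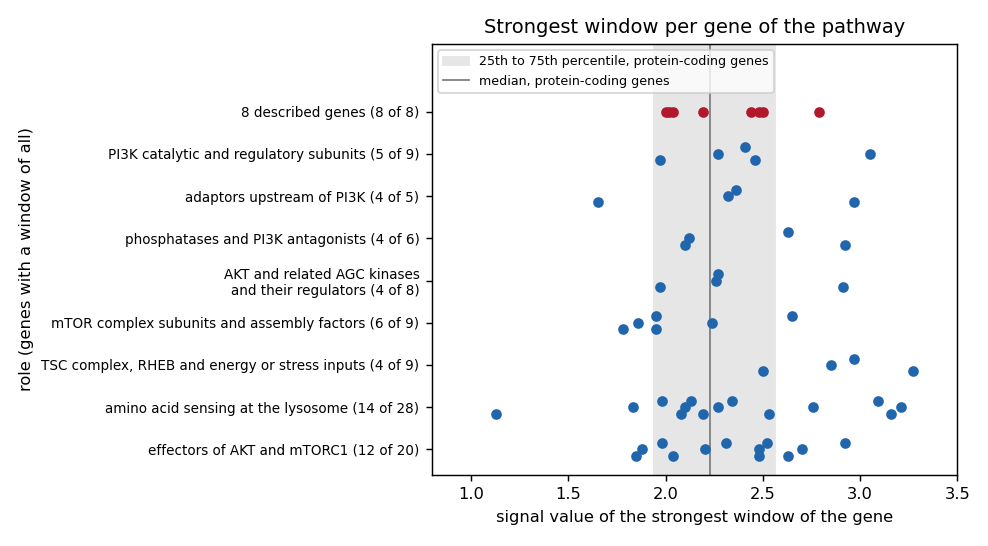
Signal value of the strongest window (horizontal axis) of each gene with a listed window, by role in the pathway, with the 25th to 75th percentile and the median of protein-coding genes in grey. The numbers beside each role are genes with a window of all genes in the role. The 8 described genes lie between 2.00 and 2.79, and the highest value in the pathway is that of TSC2, 3.27.

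Among other PI3K subunits, 5 of 9 genes had a window. PIK3CB, which encodes the catalytic subunit p110β, was not listed, whereas the regulatory subunit gene PIK3R2 (p85β) had 5 windows with signal values from 1.13 to 1.97, below the 2.19 of PIK3R1. PIK3C2A, a class II PI3K, was the strongest of the role at 3.05 and had the most windows, 8. Of the adaptors that link receptors to PI3K, 4 of 5 were listed. GRB2 had the strongest window among them, with a signal value of 2.97. IRS1 had 9 listed windows, read as more than 9, and none of those listed exceeded 1.65.

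The antagonists of PI3K were listed in 4 of 6 cases. INPPL1, a lipid phosphatase, had 9 windows with a highest value of 2.10, and INPP4A had the strongest window of the role, 2.92. In the role of AKT and related kinases, 4 of 8 genes were listed. PDPK1, the kinase that activates AKT at the membrane, had 6 windows, with signal values from 1.82 to 2.27. PPP2R5A, a regulatory subunit of protein phosphatase 2A, was the strongest at 2.91 and had 8 windows.

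The partners of MTOR, RPTOR and RICTOR were listed in part. MLST8, the subunit common to both mTOR complexes, and the inhibitor DEPTOR had no window. MAPKAP1, a subunit of mTORC2, had 2 windows of equal signal value, 1.95, close to the 2.04 of RICTOR. AKT1S1, the mTORC1 inhibitor known as PRAS40, had 4, from 1.36 to 2.24. TTI2, which takes part in the assembly of kinases of the mTOR family, was the strongest of the role at 2.65. It also had the most windows, with 9 listed and more that passed. In all 6 of 9 genes of this role were listed, with a median strongest value of 1.95.

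In TSC2, the catalytic partner of TSC1, the strongest window was above every listed TSC1 window, and the others were not. TSC2 had 3 windows with signal values of 1.45, 1.94 and 3.27, and the last of these, at chr16:2054318-2054367, had a q-value of 7.77e-15. It was the highest value among the 53 listed pathway genes and above the 2.02 of TSC1. TBC1D7, the other subunit of the TSC complex, and RHEB had no window. STK11, a kinase upstream of AMP-activated protein kinase, had 9 listed windows, read as more than 9, with a highest listed value of 2.97. Its window at chr19:1194859-1194908, with a signal value of 2.66, lay outside the RefSeq interval of the gene. The 4 listed genes of 9 in this role had a median strongest value of 2.91, the highest of the 8 roles, from no more than 4 genes.

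Of the 28 genes that pass amino acid signals to mTORC1 at the lysosome, 14 were listed. FNIP1, a partner of folliculin, was the strongest, with values of 3.10 and 3.21 in 2 windows. Among the effectors of AKT and mTORC1, 12 of 20 were listed. RPS6KB1, the S6 kinase, had 4 windows from 1.68 to 1.88, and EIF4EBP1, the repressor of cap-dependent translation, had none. GRB10 had the highest listed value, 2.92. The transcription factor FOXO3 and the p53 regulator MDM2 had the most windows, 9 listed for each and more that passed.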

How the data were processed

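RNA recovered with YTHDF1 and input RNA were sequenced from 2 replicates each. Per the labels, the submitters' processing notes name STAR 2.7.3a and GRCh38, and the libraries were strand-specific with ribosomal RNA removed. The peak caller and the treatment of reads with several matches are not given in the sources used here. The authors deposited 1 table with a signal value per window, treated as a score, its rank, a p-value and a q-value. It has no column for a single library, so replicates could not be compared, depth per library is unknown and no test was run.

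Of 26820 rows, 1 exact repeat was dropped. Positions are counted from 1. The number of windows tested per gene is the whole number m for which q = p × m / rank held for the listed windows within rounding. It is a lower bound where ranks were skipped, and 47 genes without a p-value above 1e-14 gave none. The Benjamini-Hochberg and Bonferroni alternatives used the sum of these numbers over the listed genes. A gene without an estimate entered with its listed windows, and windows tested in genes outside the table were not counted. Gene intervals, transcript starts and the 20056 protein-coding genes came from RefSeq (GRCh38.p14), in which 6370 of 6674 protein-coding symbols matched. Of 23172 protein-coding windows with a unique RefSeq symbol, 97.3% lay inside the gene of the same name, and other windows were not checked. Neither exons nor window sequences were analysed here. The 8 genes and the pathway list were chosen with earlier results of these data known. The text names the 8 genes, a fixed set of their partners and, in each role, the gene with the strongest window and those with the most windows, except a few genes that are not reported here. Scripts were tested on simulated data. Python 3.11.15, pandas 2.3.3, NumPy 2.4.6 and matplotlib 3.10.9 were used.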

Additional observations from a re-analysis of the deposited data

How the results depend on the processing

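No paired analysis was possible because no column separates replicate 1 from replicate 2. The 39 windows of the 8 genes became 13 with the q-value limit at 0.001, 4 under the Bonferroni limit and 10 where the signal value had to reach 2. Of the 8 genes, 3 passed the Bonferroni limit, as did 26 of the 53 listed pathway genes, beside 2518 of the 6370 listed protein-coding genes. The median of the strongest windows, 2.32, was 2.46 with the q-value limit at 0.001 and 2.48 under the Bonferroni limit, each over fewer genes, and 1.87 when the median window stood for each gene. The stricter limits count fewer windows or genes by construction, and the last setting keeps all 8 genes but takes a weaker window from those with several. The other alternatives kept their counts within 1.5 times. Joining touching windows gave 32 regions, and leaving out windows shared with another gene removed none. The Benjamini-Hochberg adjustment over the windows tested in listed genes left 37 windows in all 8 genes and 51 pathway genes. It counted no window of a gene outside the table, and 6282 of the 6370 listed protein-coding genes kept a window under it. It is therefore a weak check. Matching older symbols left 53 pathway genes. The planned search for m6A motifs and the placement in exons were not run, because no genome sequence or exon annotation was used here. With 1 value per window, no result has a replicate error, and a gene without a window may be too weakly expressed to be tested.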
